A study of Homo sapiens with 18 samples.

Results

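The 10 genes of sister chromatid cohesion described here were followed across 6 drug conditions in SJSA cells, a human osteosarcoma line in which MDM2 and CDK4 are amplified together. The set held the cohesin ring (SMC1A, SMC3, RAD21, STAG1, STAG2), both cohesin acetyltransferases (ESCO1, ESCO2), and securin, separase and shugoshin (PTTG1, ESPL1, SGOL1). The 10 genes were chosen by symbol, and all 10 were found among 23368 gene rows. RNA was sequenced from DMSO control cells, from cells given Nutlin, an MDM2 inhibitor that stabilises p53 (20 µM for 6 h, as the labels give the dose), and from cells given PD0332991, a CDK4 and CDK6 inhibitor (10 µM). PD24 cells had PD0332991 for 24 h, after which it was removed, and PD30 cells had it for 30 h. N+PD24 and N+PD30 cells had the same PD0332991 schedules with Nutlin for 6 h, which the study's scheme places at the end. Each condition had 3 libraries, described as biological triplicates of this 1 line. The study's scheme also writes a lower Nutlin dose, and which of the doses these libraries had was not settled here.

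Cohesin is a ring-shaped complex that encircles DNA. SMC1A and SMC3 form its arms, the kleisin RAD21 closes them, and STAG1 or STAG2 binds RAD21, so that a given ring carries one or the other. The ring holds sister chromatids together from replication to anaphase once SMC3 has been acetylated by ESCO1, which is present through much of the cell cycle, or by ESCO2, which acts with replication. At anaphase the ubiquitin ligase APC/C destroys securin (PTTG1), which frees separase (ESPL1) to cut RAD21, while shugoshin (SGOL1, now named SGO1) protects centromeric cohesin until then. Many genes of replication and mitosis are repressed in cells that stop cycling, through E2F sites or through a promoter element called CHR, which often stands near a CCAAT box.

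The 250 bases before the annotated start are shown for the 3 genes of the anaphase step, whose RNA fell far with PD0332991, and for SMC3, whose RNA fell less, so that their promoter letters can be compared. The sequences are those of RefSeq on GRCh38.p14, 5′ to 3′ on the strand of the gene, and windows were held for 7 of the 10 genes. Capitals mark the CHR letters TTTGAA, the CCAAT box, and E2F sites (TTTCCCGC, TTTGGCGC, TTTCGCGC or TTTGCCGC), each searched on both strands.
ESPL1 (chr12:53268049-53268298, plus strand): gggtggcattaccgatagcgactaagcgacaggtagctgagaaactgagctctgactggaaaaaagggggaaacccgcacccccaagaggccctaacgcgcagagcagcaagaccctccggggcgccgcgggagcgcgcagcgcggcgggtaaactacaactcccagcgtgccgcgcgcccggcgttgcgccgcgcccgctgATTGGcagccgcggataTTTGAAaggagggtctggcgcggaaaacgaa
PTTG1 (chr5:160421605-160421854, plus strand): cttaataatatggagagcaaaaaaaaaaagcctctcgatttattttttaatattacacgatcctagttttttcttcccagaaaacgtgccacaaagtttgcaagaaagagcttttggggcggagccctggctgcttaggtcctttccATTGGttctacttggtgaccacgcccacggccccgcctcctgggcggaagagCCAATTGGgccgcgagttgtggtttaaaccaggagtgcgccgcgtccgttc
SGOL1 (chr3:20186207-20186456, minus strand): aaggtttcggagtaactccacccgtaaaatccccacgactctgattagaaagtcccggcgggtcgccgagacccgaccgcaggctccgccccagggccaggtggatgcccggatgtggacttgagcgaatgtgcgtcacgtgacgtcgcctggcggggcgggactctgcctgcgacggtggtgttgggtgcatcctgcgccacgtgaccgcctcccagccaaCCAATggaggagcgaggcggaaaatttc
SMC3 (chr10:110567445-110567694, plus strand): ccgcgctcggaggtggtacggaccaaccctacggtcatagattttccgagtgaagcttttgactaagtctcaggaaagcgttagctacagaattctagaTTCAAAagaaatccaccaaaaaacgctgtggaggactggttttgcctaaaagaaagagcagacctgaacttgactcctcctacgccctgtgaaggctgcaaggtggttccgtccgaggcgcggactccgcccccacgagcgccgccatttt
The ESPL1 window held ATTGG, the reverse of CCAAT, at 48 to 44 bases before the start, and TTTGAA at 31 to 26. PTTG1 held 3 CCAAT matches, of which the forward one at 51 to 47 overlaps the reverse one at 48 to 44, and SGOL1 held 1 at 28 to 24. CCAAT also stood before STAG1 and STAG2, in windows not printed, so that 5 of the 7 genes with a window held it. SMC3 held the CHR letters on the reverse strand only, at 151 to 146 bases before the start. CHR letters stood in 13.3% of 35116 windows of the same length, CCAAT in 32.0% and an E2F match in 2.79%, so that a CCAAT match is common anywhere. These shares are per window, whereas a gene with several windows was counted if any of them matched. The count of genes and the shares are therefore not of the same unit. E2F letters were found before 1 start each of SMC1A, STAG1 and STAG2, and in none of the 4 windows printed. A match describes the letters only.

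In GRCh37, the build the study aligned to (hg19), the core genes lie at chrX:53401070-53449677 (SMC1A, minus strand), chr10:112327442-112365806 (SMC3, plus), chr8:117858173-117887015 (RAD21, minus), chr3:136055078-136471245 (STAG1, minus) and chrX:123094062-123556514 (STAG2, plus). ESCO1 lies at chr18:19109245-19180845 (minus) and ESCO2 at chr8:27629466-27670157 (plus). PTTG1 lies at chr5:159848862-159855746 (plus), ESPL1 at chr12:53662083-53687422 (plus) and SGOL1 at chr3:20202085-20227698 (minus). Values are counts over whole genes. Exons of SMC1A, RAD21, STAG1, STAG2 and SGOL1 overlap exons of a gene on the other strand (RIBC1, UTP23 and RAD21-AS1, PCCB, TENM1 and STAG2-AS1, and SGO1-AS1, in that order). Since the methods do not say whether the library kit keeps the strand, part of the reads of these 5 genes could come from the partner. The near-identical copies of PTTG1, PTTG2 and PTTG3P, reached at most 0.041 and 0.082 CPM (counts scaled to the same total in each library) in any library, although reads shared with PTTG1 may have been discarded.

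Total counts ranged from 12704845 to 40231041 per library, and the lowest was N+PD30 replicate 1. Osteoblast-lineage genes were mixed, with COL1A1 at 1122 CPM or more and SP7, BGLAP and IBSP at 0.244 CPM or less in every library, and the summed level of 4 blood genes stayed at 0.677 CPM or less. The summed level of 10 S-phase genes was 2171 to 2348 CPM in DMSO, 1343 to 1463 in Nutlin and 147 to 284 in the 4 groups with PD0332991. For 10 G2/M genes it was 2942 to 3172 CPM in DMSO, 1556 to 2273 in Nutlin and 26.9 to 79.8 with PD0332991. These cell cycle genes moved with the results below, and their part in them was not tested. In RNA from whole cultures, fewer cells in a phase and less RNA per cell cannot be told apart. Scaling by total counts in place of edgeR's TMM factors moved the median log2 change of all genes from 0.03 to -0.10 in Nutlin against DMSO, from -0.01 to -0.10 in N+PD30 against PD30, from -0.02 to -0.11 in N+PD24 against PD24 and from 0.01 to 0.10 in N+PD30 against N+PD24. The split of calls over all genes moved with it, from 4198 higher and 4416 lower to 3151 and 5439 in Nutlin against DMSO, from 1333 and 850 to 1107 and 1421 in N+PD30 against PD30, from 2155 and 3348 to 1635 and 4073 in N+PD24 against PD24, and from 2535 and 2317 to 3129 and 1824 in N+PD30 against N+PD24.

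PD0332991 lowered 9 of the 10 genes in both schedules. Log2 changes of the ring genes lay between -1.66 and -0.48, whereas those of PTTG1, SGOL1, ESPL1 and ESCO2 lay between -8.54 and -4.10. With PD24 against DMSO, 9 genes were lower and 0 higher, where 20.8% of 15094 genes tested were lower and 17.5% higher (edgeR's quasi-likelihood test, Benjamini-Hochberg adjusted p under 0.05, as for all calls below). With PD30 against DMSO, 9 were lower and 1 higher, where 25.4% of 15125 genes were lower and 22.9% higher. All 10 genes had groups that did not overlap in CPM in either comparison, against 50.1% of genes in the first and 57.3% in the second. Both comparisons use the same DMSO libraries, and their values are therefore given side by side.

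SMC1A, an arm of the ring, stood at 371, 372 and 413 CPM in DMSO and at 342, 315 and 329 in Nutlin. It stood at 128, 117 and 154 CPM in PD24, at 152, 143 and 158 in PD30, at 103, 103 and 122 in N+PD24 and at 117, 123 and 135 in N+PD30. Every library with PD0332991 lay under every library without it. The level fell by 1.51 ± 0.11 (SE) on the log2 scale in PD24 (edgeR adjusted p = 8.9e-06) and by 1.37 ± 0.08 in PD30 (edgeR adjusted p = 7.2e-07).

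Its partner SMC3 stood at 195, 211 and 242 CPM in DMSO and at 134, 132 and 121 in Nutlin. With PD0332991 it stood at 80.7, 73.3 and 99.0 CPM in PD24, 89.8, 83.0 and 103 in PD30, 42.9, 49.4 and 54.8 in N+PD24, and 47.6, 54.5 and 66.2 in N+PD30. Thus the libraries with both drugs were the lowest, and they overlapped with neither PD0332991 alone nor Nutlin alone. The level fell by 1.34 ± 0.12 on the log2 scale in PD24 (edgeR adjusted p = 5.5e-05) and by 1.24 ± 0.11 in PD30 (edgeR adjusted p = 1.4e-05).

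RAD21, the kleisin that separase cuts, stood at 543, 557 and 618 CPM in DMSO and at 420, 340 and 365 in Nutlin. In the groups with PD0332991 it stood at 186, 158 and 191 CPM in PD24, 236, 225 and 251 in PD30, 124, 129 and 132 in N+PD24, and 133, 155 and 183 in N+PD30. Both PD groups lay under Nutlin, and PD24 lay under PD30 in every library. The level fell by 1.66 ± 0.10 on the log2 scale in PD24 (edgeR adjusted p = 2.1e-06) and by 1.29 ± 0.08 in PD30 (edgeR adjusted p = 1.3e-06).

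STAG1 stood at 74.5, 79.6 and 93.2 CPM in DMSO, 76.0, 68.8 and 71.2 in Nutlin, 47.9, 45.6 and 55.5 in PD24, and 55.8, 53.2 and 65.1 in PD30. STAG2 stood at 212, 243 and 257 CPM in DMSO, 176, 165 and 163 in Nutlin, 122, 113 and 155 in PD24, and 169, 152 and 196 in PD30. With both drugs STAG1 stood at 44.9, 41.6 and 43.2 CPM in N+PD24 and 36.0, 38.6 and 53.2 in N+PD30, and STAG2 at 97.0, 102 and 104 in N+PD24 and 103, 123 and 133 in N+PD30. Both STAG genes were lower with PD0332991 than in DMSO without overlap, by less than the other ring genes. STAG1 fell by 0.71 ± 0.11 on the log2 scale in PD24 (edgeR adjusted p = 0.0014) and by 0.52 ± 0.11 in PD30 (edgeR adjusted p = 0.0032). STAG2 fell by 0.85 ± 0.12 in PD24 (edgeR adjusted p = 0.00085) and by 0.48 ± 0.11 in PD30 (edgeR adjusted p = 0.0048).

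The acetyltransferases parted. ESCO2, the replication-linked enzyme, stood at 53.1, 54.6 and 66.4 CPM in DMSO and at 28.4, 21.3 and 27.2 in Nutlin. In PD24 its 3 libraries held 5, 4 and 5 counts, in PD30 16, 13 and 10, in N+PD24 8, 14 and 8 (reads recovered from the deposited values) and in N+PD30 2, 3 and 4. Against the 1574 to 2054 counts of the DMSO libraries, the gene was thus close to unread in every group with PD0332991. It fell by 8.54 ± 0.21 on the log2 scale in PD24 (edgeR adjusted p = 9.6e-09) and by 7.22 ± 0.20 in PD30 (edgeR adjusted p = 6.1e-09), values that rest on these few counts. Summed over 3 libraries, its count was 14 in PD24 (95% Poisson interval 7.65 to 23.5) and 39 in PD30 (27.7 to 53.3), intervals that cover counting error only.

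ESCO1 stood at 22.0, 23.6 and 26.3 CPM in DMSO, 11.6, 10.5 and 10.9 in Nutlin, and 19.6, 14.9 and 21.9 in PD24. It stood at 30.2, 27.1 and 37.1 CPM in PD30, 9.10, 6.93 and 10.1 in N+PD24, and 11.3, 22.0 and 25.4 in N+PD30. The PD30 libraries were the highest and N+PD24 the lowest, and N+PD30 was the only group whose 3 libraries spread over more than 2-fold, with replicate 1, the shallowest library, at the bottom. In PD24 against DMSO the log2 change of -0.33 ± 0.15 did not pass (edgeR adjusted p = 0.11). ESCO1 rose by 0.38 ± 0.13 in PD30 (edgeR adjusted p = 0.036), the 1 gene of the set to do so against DMSO. That call was lost without DMSO replicate 1, DMSO replicate 2, PD30 replicate 1 or PD30 replicate 3 (edgeR adjusted p from 0.062 to 0.11, log2 changes from 0.25 to 0.41).

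The anaphase genes fell by large amounts. PTTG1 stood at 143, 142 and 148 CPM in DMSO and at 143, 121 and 128 in Nutlin. With PD0332991 it stood at 6.11, 7.38 and 6.98 CPM in PD24, 10.6, 8.43 and 6.56 in PD30, 10.2, 10.7 and 6.50 in N+PD24, and 5.75, 8.70 and 5.28 in N+PD30. These 4 groups overlapped among themselves and lay far under the other 2. The level fell by 4.38 ± 0.12 on the log2 scale in PD24 (edgeR adjusted p = 1.3e-08) and by 4.10 ± 0.16 in PD30 (edgeR adjusted p = 4.9e-08).

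ESPL1 stood at 98.0, 98.1 and 107 CPM in DMSO and at 46.4, 33.4 and 50.3 in Nutlin. It stood at 1.12, 0.885 and 1.07 CPM in PD24, 0.999, 0.640 and 0.852 in PD30, 0.451, 1.00 and 0.722 in N+PD24, and 0.236, 0.571 and 0.387 in N+PD30. Only 3 to 43 counts per library stood behind these PD0332991 values. Separase RNA fell by 6.59 ± 0.14 on the log2 scale in PD24 (edgeR adjusted p = 4.7e-09) and fell by 6.95 ± 0.14 in PD30 (edgeR adjusted p = 2.5e-09).

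SGOL1 stood at 32.1, 34.8 and 35.9 CPM in DMSO and at 16.5, 12.9 and 16.0 in Nutlin. It stood at 1.83, 1.69 and 1.76 CPM in PD24, 1.86, 1.47 and 1.36 in PD30, 1.52, 1.92 and 1.91 in N+PD24, and 1.42, 1.48 and 1.55 in N+PD30. The 3 DMSO libraries, the 3 Nutlin libraries and the 12 libraries with PD0332991 thus formed separate steps. The level fell by 4.26 ± 0.13 on the log2 scale in PD24 (edgeR adjusted p = 3.6e-08) and fell by 4.47 ± 0.14 in PD30 (edgeR adjusted p = 1.6e-08).

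**Figure D1:**
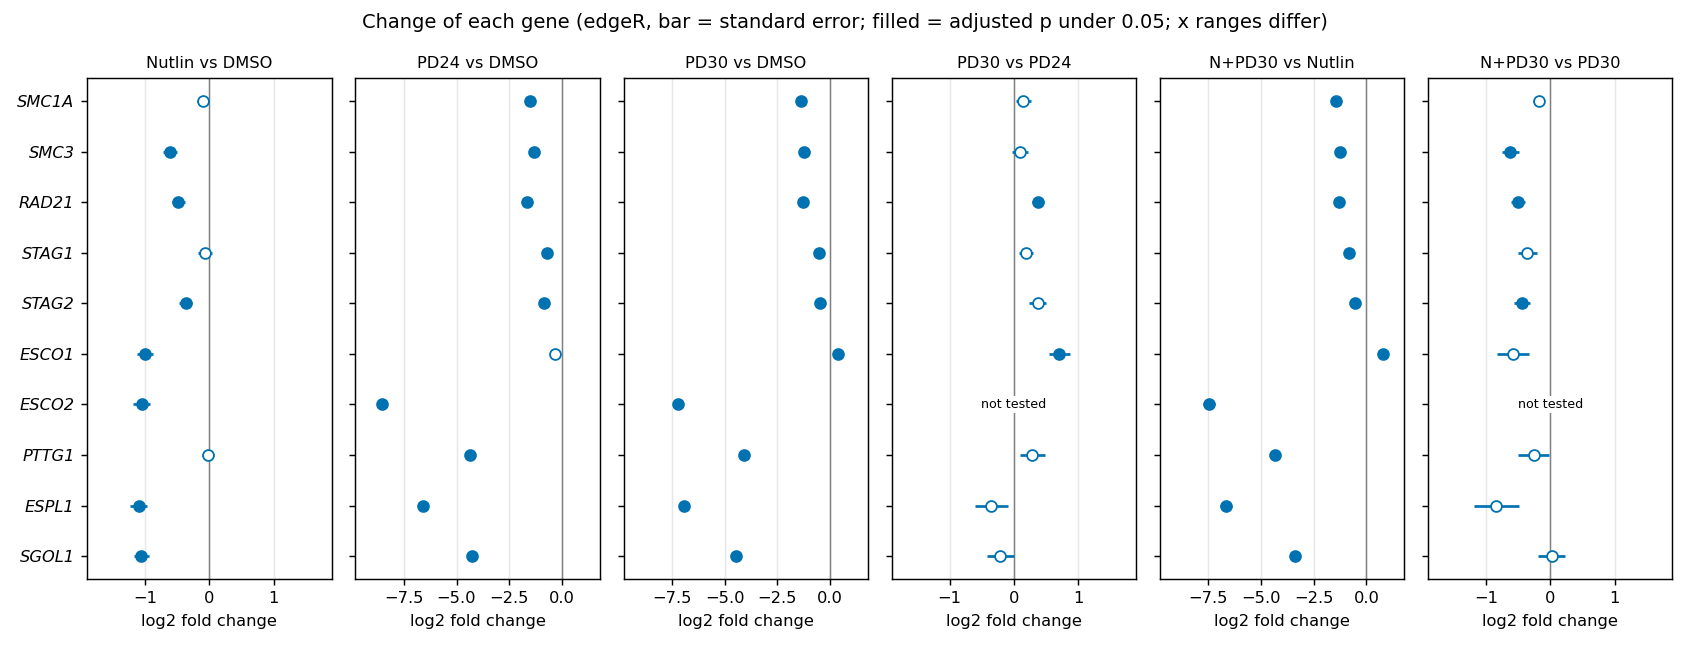
The log2 fold change of each gene in 6 comparisons fitted with edgeR; bars are standard errors, filled points passed an adjusted p of 0.05, and the x ranges differ between panels. The largest change with PD0332991 was -8.54, for ESCO2, whereas changes with Nutlin lay between -1.10 and -0.02.

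Nutlin alone lowered 7 of the 10 genes and raised 0, where 28% of 15766 genes tested were lower and 26.6% higher. In 8 of the 10 the groups did not overlap, against 61.8% of all genes, so that a lack of overlap was common here. The genes with the largest falls were ESPL1 by 1.10 ± 0.13 on the log2 scale (edgeR adjusted p = 9.1e-05), SGOL1 by 1.06 ± 0.12 (edgeR adjusted p = 6.6e-05), ESCO2 by 1.05 ± 0.13 (edgeR adjusted p = 0.00012) and ESCO1 by 1.00 ± 0.12 (edgeR adjusted p = 9.1e-05). Within the ring SMC3 fell by 0.62 ± 0.11 (edgeR adjusted p = 0.0008), RAD21 by 0.48 ± 0.10 (edgeR adjusted p = 0.0027) and STAG2 by 0.37 ± 0.10 (edgeR adjusted p = 0.0091). SMC1A changed by -0.10 ± 0.09 (edgeR adjusted p = 0.32), STAG1 by -0.07 ± 0.10 (edgeR adjusted p = 0.60) and PTTG1 by -0.02 ± 0.09 (edgeR adjusted p = 0.87), and none of these passed. Scaled by total counts, which moved all genes down, SMC1A passed with -0.23 (edgeR adjusted p = 0.035). PTTG1 and ESPL1, which bind each other, thus gave different results under Nutlin, though the difference between them was not tested.

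Compared with Nutlin alone, adding PD0332991 throughout (N+PD30) again lowered 9 genes and raised 1, where 24.7% of 15721 genes tested were lower and 24.3% higher. Groups did not overlap for 9 of the 10, against 57.5% of genes. The libraries of this comparison are not those of PD30 against DMSO. SMC1A fell by 1.43 ± 0.11 on the log2 scale, RAD21 by 1.30 ± 0.14 and SMC3 by 1.24 ± 0.13, with edgeR adjusted p from 3.9e-06 to 3.8e-05. STAG1 fell by 0.80 ± 0.14 (edgeR adjusted p = 0.0011) and STAG2 by 0.54 ± 0.12 (edgeR adjusted p = 0.0041). The log2 change was again large for ESCO2 at -7.48 ± 0.28, ESPL1 at -6.66 ± 0.27, PTTG1 at -4.33 ± 0.20 and SGOL1 at -3.38 ± 0.19, with edgeR adjusted p from 2.0e-08 to 2.7e-07. ESCO1 rose by 0.80 ± 0.23 (edgeR adjusted p = 0.016), but its groups overlapped, and the call was lost without Nutlin replicate 2, Nutlin replicate 3 or N+PD30 replicate 2 (edgeR adjusted p from 0.052 to 0.064).

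With the earlier, removed PD0332991 (N+PD24 against Nutlin), 9 genes were lower and 0 higher, where 19.5% of 15263 genes tested were lower and 15.6% higher in limma on log2(CPM + 0.5). All 10 had groups that did not overlap, against 48.4% of genes. The Nutlin libraries are those of N+PD30 against Nutlin and of Nutlin against DMSO, so that these comparisons are not independent. N+PD24 had been deposited as a normalized signal, which is why limma was used, and the added 0.5 understates the change of genes at low CPM. SMC1A fell by 1.56 ± 0.11 (limma adjusted p = 2.3e-06), RAD21 by 1.51 ± 0.11 (limma adjusted p = 3.9e-06) and SMC3 by 1.36 ± 0.12 (limma adjusted p = 1.5e-05). STAG1 and STAG2 both fell by 0.70, with errors of 0.11 and 0.10 (limma adjusted p of 0.0009 and 0.00048). On this scale the changes were -5.15 ± 0.20 for ESPL1, -4.94 ± 0.16 for ESCO2, -3.76 ± 0.19 for PTTG1 and -2.74 ± 0.15 for SGOL1, with limma adjusted p from 1.5e-08 to 5.8e-07. In edgeR on the recovered reads the change of ESCO2 was -6.16 ± 0.21 and that of ESPL1 was -5.77 ± 0.25. ESCO1 changed by -0.30 ± 0.17 (limma adjusted p = 0.18), and with the replicate number as a block it passed (limma adjusted p = 0.043). Calls over all genes went from 5355 to 8291 with that block.

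PD30 and PD24 differ in whether PD0332991 was removed for the last hours. In PD30 against PD24, 2 of the 9 genes tested were higher and 0 lower, where 12.2% of 15171 genes were higher and 12.9% lower. Groups did not overlap for 3 of the 10, against 42.1% of genes tested. ESCO2, which was not among the genes tested, was 1 of the 3. ESCO1 was higher in PD30 by 0.71 ± 0.16 on the log2 scale (edgeR adjusted p = 0.013) and RAD21 by 0.38 ± 0.10 (edgeR adjusted p = 0.021). RAD21's call was lost without PD24 replicate 2, PD30 replicate 1 or PD30 replicate 3 (edgeR adjusted p from 0.066 to 0.082), which took the count of genes called from 2 to 1. STAG2 was at 0.37 ± 0.13 (edgeR adjusted p = 0.067) and passed with the replicate block (edgeR adjusted p = 0.0035) or without PD24 replicate 3 (edgeR adjusted p = 0.017). With the block, calls over all genes went from 3816 to 6107. ESCO2 was too low for the count filter, and without the filter its log2 difference of 1.33 ± 0.49 did not pass (edgeR adjusted p = 0.067). Among the 10 S-phase genes 6 were lower in PD30 than in PD24 and 0 higher, with a median of -0.74, and of the 10 G2/M genes 2 were higher and 0 lower, with a median of 0.38. Their part in these results was not tested.

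In the presence of Nutlin, the same contrast of schedules (N+PD30 against N+PD24) gave 1 of 9 genes higher and 0 lower, where 16.9% of 14982 genes tested were higher and 15.5% lower in limma. Of the 10 genes, 2 were higher and 1 was lower without overlap, against 48.3% of genes tested not overlapping in either direction. The 1 lower was ESCO2, which was not among the genes tested. ESCO1 was higher by 0.97 ± 0.27 on the log2(CPM + 0.5) scale (limma adjusted p = 0.020), a call lost without N+PD24 replicate 2 or N+PD30 replicate 2 (limma adjusted p of 0.084 and 0.082). The other 8 genes tested lay between -0.54 and 0.18 and did not pass, although PTTG1 passed without N+PD24 replicate 3 (limma adjusted p = 0.037), which took the count from 1 to 2. ESCO2, left out by the filter, had 30 counts in N+PD24 (95% Poisson interval 20.2 to 42.8) and 9 in N+PD30 (4.12 to 17.1). These counts and intervals are not scaled for depth, and the median total was 27694736 in N+PD24 and 20652310 in N+PD30. Without the filter the difference of ESCO2, -0.39 ± 0.10, passed (limma adjusted p = 0.023).

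In N+PD30 against PD30, 3 of 9 genes tested were lower and 0 higher, where 5.64% of 15077 genes were lower and 8.84% higher. Groups did not overlap for 8 of the 10 genes, against 40.1% of genes tested. ESCO2, too low for the count filter here, was 1 of the 8. SMC3 fell by 0.62 ± 0.13 on the log2 scale (edgeR adjusted p = 0.018), RAD21 by 0.50 ± 0.11 (edgeR adjusted p = 0.024) and STAG2 by 0.44 ± 0.12 (edgeR adjusted p = 0.046). With the replicate block STAG1, at -0.36 (edgeR adjusted p = 0.023), and ESCO1, at -0.62 (edgeR adjusted p = 0.041), passed as well, for 5 genes, and calls over all genes went from 2183 to 4375. The count was 0 without PD30 replicate 1, PD30 replicate 3 or N+PD30 replicate 2, it was 1 without PD30 replicate 2, 2 without N+PD30 replicate 1 and 5 without N+PD30 replicate 3, so that these calls turned on single libraries. Without a library, calls over all genes ranged from 583 to 3384. SMC1A was at -0.18 ± 0.09 (edgeR adjusted p = 0.20) and SGOL1 at 0.02 ± 0.21 (edgeR adjusted p = 0.96, -0.07 when scaled by total counts).

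In N+PD24 against PD24, 3 of 9 genes tested were lower and 0 higher, where 22.5% of 14910 genes were lower and 14.5% higher in limma. Of the 10 genes, 5 were lower and 1 was higher without overlap, against 50.4% of genes tested not overlapping. The 1 higher was ESCO2, which was too low for the filter and so is not part of that share. ESCO1 fell by 0.97 ± 0.19 on the log2(CPM + 0.5) scale (limma adjusted p = 0.0025), SMC3 by 0.67 ± 0.14 (limma adjusted p = 0.0038) and RAD21 by 0.37 ± 0.12 (limma adjusted p = 0.030). The call of RAD21 was lost without PD24 replicate 1, PD24 replicate 3, N+PD24 replicate 2 or N+PD24 replicate 3 (limma adjusted p from 0.051 to 0.10). PTTG1, at 0.47 ± 0.21 (limma adjusted p = 0.11), passed with the replicate block (limma adjusted p = 0.025) and without N+PD24 replicate 3 (limma adjusted p = 0.017). ESCO2 had 14 counts in PD24 and 30 in N+PD24, with Poisson intervals that overlapped, and its unfiltered difference of 0.38 ± 0.09 passed in limma (adjusted p = 0.014).

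Whether Nutlin acted differently with continuous PD0332991 was tested as an interaction over DMSO, Nutlin, PD30 and N+PD30. Of the 10 genes, 1 passed, in the positive direction, where 12.8% of 16113 genes tested were positive and 7.03% negative. SGOL1 fell by 1.06 with Nutlin alone and stayed near its low level with PD0332991, a difference of 1.13 ± 0.21 on the log2 scale (edgeR adjusted p = 0.0025). The other 9 genes had differences from -0.24 to 0.46 and did not pass. ESCO1, at 0.46 ± 0.29 (edgeR adjusted p = 0.29), passed without N+PD30 replicate 1, at 0.70 (edgeR adjusted p = 0.020), which took the count from 1 to 2.

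Where a log2 fold change over 1 in size was also required, 3 of the 10 genes were called with Nutlin against DMSO (20.8% of all genes tested). The count was 7 with PD24 (12.6%) and 7 with PD30 (15.2%) against DMSO, 7 with N+PD30 (22.3%) and 7 with N+PD24 (9.24%) against Nutlin, and 1 in the interaction (10.2%). It was 0 in PD30 against PD24 (7.49%), N+PD30 against PD30 (3.68%), N+PD24 against PD24 (11.8%) and N+PD30 against N+PD24 (9.77%). The large changes of these genes were thus found where PD0332991 was compared with its absence, and for ESCO2, ESPL1 and SGOL1 also with Nutlin alone.

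Levels were next compared between genes per kilobase of the MANE transcript. PTTG1 (182 to 202 CPM per kb as group means) and RAD21 (102 to 156) led in DMSO and Nutlin, and RAD21 led in all 4 groups with PD0332991 (35.1 to 64.8). ESCO1, the lowest in DMSO at 5.34 ± 0.48 CPM per kb (SD, n = 3), stood above SGOL1, ESPL1 and ESCO2 in each group with PD0332991. The ratio of ESCO2 to ESCO1 was 2.89 ± 0.12 (SD, n = 3) in DMSO and 2.79 ± 0.31 in Nutlin, and 0.010 to 0.047 as group means with PD0332991. For SMC1A over SMC3, which a ring holds in equal number, the ratio ran from 0.869 to 1.08 in the 9 libraries without Nutlin and from 1.16 to 1.55 in the 9 with it, without overlap. STAG1 made up 24.2 to 32.1% of STAG1 plus STAG2 in all libraries, with 30.4 ± 0.47% in Nutlin against 26.2 ± 1.00% in DMSO. The ratio of PTTG1 to ESPL1 was 13.2 ± 0.39 in DMSO, 28.5 ± 5.04 in Nutlin, 62.7 ± 13.5 in PD24, 97.2 ± 25.4 in PD30, 131 ± 68.7 in N+PD24 and 164 ± 53.4 in N+PD30. No test was run on these ratios, and those of ESCO2 and ESPL1 rest on few counts. The order of genes and the size of each ratio also depend on the transcript length taken, whereas reads were counted over whole genes. That length was the same for a gene in every group.

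The set's share of all counts was 0.186 ± 0.014% in DMSO, 0.130 ± 0.009% in Nutlin, 0.060 ± 0.008% in PD24, 0.075 ± 0.006% in PD30, 0.045 ± 0.002% in N+PD24 and 0.053 ± 0.007% in N+PD30 (SD, n = 3). Across the 18 libraries, which share conditions, log2 levels of ESCO2, PTTG1, ESPL1 and SGOL1 followed each other with Pearson's r from 0.97 to 0.99, as described and not tested. SMC3 followed RAD21 at 0.98, and the r of ESCO1 was 0.59 with STAG2, 0.41 with SMC3, 0.35 with RAD21, 0.34 with STAG1, 0.16 with SMC1A and -0.01 with ESCO2. Among 13557 genes with a mean of at least 1 CPM, the closest in pattern to ESCO2 were CEP55, RRM2 and MKI67, with r from 0.996 to 0.997. Those closest to PTTG1 were SPAG5, STMN1 and BIRC5, with r from 0.996 to 0.997. For SMC3 they were TPR, PDS5B and LCORL, with r from 0.985 to 0.989, and PDS5B encodes a protein that binds the ring itself.

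Genes that load, hold or release cohesin had a smaller median change than the set of 10 in each comparison against DMSO. The 8 were NIPBL and MAU2 (the loader), WAPAL, PDS5A, PDS5B, CDCA5, HDAC8 and CTCF. Of these, 6 were lower with Nutlin, 6 with PD24 and 5 with PD30 against DMSO, and 0 were higher. Over all genes 28%, 20.8% and 25.4% were lower in that order, and 26.6%, 17.5% and 22.9% higher. The median log2 change of the 8 was -0.40 with Nutlin, -0.54 with PD24 and -0.37 with PD30, beside medians of 0.03, 0.02 and 0.002 over all genes. CDCA5, which encodes sororin, the factor that locks acetylated cohesin on DNA, changed by -1.30, -5.30 and -5.77 in that order. PDS5B changed by -0.81, -1.40 and -1.46. HDAC8, the SMC3 deacetylase, was within 0.10 of no change in these 3 comparisons and did not pass. In N+PD30 against Nutlin 4 were lower, CDCA5 at -4.89, and MAU2 rose by 0.55, where 24.7% of all genes were lower and 24.3% higher.

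Genes that protect centromeric cohesin were counted next. They were SGOL2 and 7 genes of the PP2A-B56 phosphatase that shugoshins recruit. Of these, 4 were lower with Nutlin, 4 lower and 2 higher with PD24, and 5 lower and 1 higher with PD30. Over all genes 28%, 20.8% and 25.4% were lower in that order, and 26.6%, 17.5% and 22.9% higher. SGOL2 changed by -1.51 with Nutlin, -4.19 with PD24 and -4.55 with PD30 on the log2 scale. PPP2R5B fell by 0.33 with Nutlin and rose by 0.40 with PD24 and by 0.98 with PD30, and PPP2R5D changed by -0.55, -0.67 and -0.96. The median of the list was -0.28, -0.28 and -0.40, beside 0.03, 0.02 and 0.002 over all genes. In N+PD30 against Nutlin 4 of the 8 were lower, and PPP2R5B rose by 1.56, where 24.7% of all genes were lower and 24.3% higher.

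Of the APC/C and its activators, 15 genes were found out of 16 listed. Of these, 8 were lower and 2 higher with Nutlin, 6 lower and 0 higher with PD24, and 8 lower and 1 higher with PD30, with list medians of -0.25, -0.12 and -0.35. Over all genes 28% were lower and 26.6% higher with Nutlin, 20.8% and 17.5% with PD24, and 25.4% and 22.9% with PD30. CDC20, the activator that directs APC/C to securin, changed by -0.87 with Nutlin, -4.47 with PD24 and -5.09 with PD30. FZR1, the activator of late mitosis and G1, changed by -1.33, -0.71 and -0.85. The catalytic subunit gene ANAPC11 rose by 0.58 with Nutlin. Without CDC20, the log2 changes with PD0332991 lay between -0.85 and 0.30. In N+PD30 against Nutlin 3 of the 15 were lower, CDC20 at -4.57, and FZR1 rose by 0.89. Of all genes tested, 24.7% were lower and 24.3% higher there, larger shares than in this list.

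Of the 4 subunits used in meiosis, 3 were tested with Nutlin, and RAD21L1 rose by 0.90, where 26.6% of all genes were higher. STAG3 fell by 1.08 with PD24 and by 0.88 with PD30, and RAD21L1 fell by 1.36 with PD30. The shares of all genes lower were 20.8% with PD24 and 25.4% with PD30. These genes were near the floor. Mean levels of RAD21L1 were 0.715 CPM in DMSO, 1.23 in Nutlin and 0.284 in PD30. Those of STAG3 were 3.57 CPM in DMSO, 1.65 in PD24 and 1.96 in PD30. All 10 S-phase and all 10 G2/M genes fell with PD24 and with PD30, with medians of -3.13 and -5.86 in PD24 and of -4.20 and -5.63 in PD30. ESCO2, PTTG1, ESPL1, SGOL1, CDCA5, SGOL2 and CDC20 thus lay in the range of these lists with PD0332991, ESCO2 with both schedules and ESPL1 with PD30 below it, while the log2 changes of ring genes lay above it.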

How the data were processed

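RNA-seq of 18 libraries was used, 3 per group, grouped by the sample labels. Per the sources, the authors mapped reads to hg19 with TopHat and Bowtie2, counted them per gene symbol with HTSeq 0.6.0 with the reverse-strand setting and compared groups with DESeq2. The deposited values are counts for 5 groups, and for N+PD24 a normalized signal, which the authors made by dividing counts by 1 size factor per library. Whole reads were recovered for 100% of its values (relative tolerance 0.0001). Further deposited tables, of size-factor-normalized values and of the authors' Nutlin comparison (base means, fold changes, p-values), were not used.

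Total counts were 12704845 to 40231041 per library. CPM was the count over the library's total, and N+PD24 was rescaled by its own total. Tests used edgeR 4.0.16 (quasi-likelihood, TMM, filterByExpr; R 4.3.3) on the groups compared, and limma 3.58.1 with a trend on log2(TMM-scaled CPM + 0.5) for N+PD24, over genes with a CPM of at least 0.5 in 3 or more libraries. A call was a Benjamini-Hochberg adjusted p under 0.05 over all genes tested. The fits were tested on simulated data. Alternatives were DESeq2 1.42.0, other scalings, filters and pseudocounts, a fold threshold, a replicate block and leaving out each library. Replicates that share a number deviated together (r over 0.1 in each pair) in PD30 against PD24 (0.32 to 0.66), N+PD30 against PD30 (0.20 to 0.75), N+PD24 against Nutlin (0.55 to 0.72) and N+PD24 against PD24 (0.23 to 0.66), which the data and not the labels show, and blocked values are given there where they changed a call. In N+PD30 against PD30, however, not every N+PD30 library deviated most closely with the PD30 library of its own number. No 2 replicates of a group agreed within sampling noise.

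The 10 genes are named throughout, and of the other lists those that passed and had the largest or smallest changes, at most 3 per list and comparison. The genes and lists were chosen with earlier results of these data known. Gene positions come from GENCODE on GRCh37.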

Additional observations from a re-analysis of the deposited data

Results flagged for a closer look

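Among the 10 genes, SGOL1 differed between cells with and without PD0332991 in its response to Nutlin. Its log2 change with Nutlin was more positive by 1.13 in PD30 cells (edgeR interaction, adjusted p = 0.0025). Nutlin took its mean from 34.3 to 15.1 CPM without PD0332991, and with it the levels were 1.36 to 1.86 CPM in PD30 and 1.42 to 1.55 in N+PD30, from 48 to 54 and 18 to 44 counts per library.

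Of the related genes tested, 8 in loading and release, 4 meiotic, 8 in SGOL2 and PP2A-B56 and 15 in APC/C, 5 differed in the same way, all toward a less negative or more positive change with Nutlin in PD30 cells on the log2 scale. The difference was 1.78 for FZR1, 0.92 for CDCA5, 0.62 for PPP2R5B, 0.55 for CDC23 and 0.42 for PPP2R5D. Over all 16113 genes tested, 12.8% differed in this direction and 7.03% in the other. A difference of this kind was thus common, and not particular to the 10 genes or to these lists. In the same direction 6 of 10 S-phase genes (median 0.61) and 2 of 10 G2/M genes (median 0.43) differed and 0 differed in the other, and their part in these results was not tested.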

How the results depend on the processing

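Of 43 counts of the 10 genes under other tools, scalings, filters and pseudocounts, 42 stayed within 1.5 times the reported count, and without a filter N+PD30 against N+PD24 gave 2. Within that margin, RLE size factors gave 2 genes in place of 3 in N+PD30 against PD30. No change of a called gene reversed. With an absolute log2 fold change over 1 also required, 3 of the 10 genes were called in Nutlin against DMSO and 0 in PD30 against PD24, N+PD30 against PD30, N+PD24 against PD24 and N+PD30 against N+PD24. Over all genes that rule left 3277, 1137, 555, 1753 and 1463 calls in these comparisons, and 1898 in PD24 and 2305 in PD30 against DMSO, 3510 in N+PD30 and 1410 in N+PD24 against Nutlin, and 1647 in the interaction.

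With the replicate block, N+PD30 against PD30 gave 5 of the 10 genes and 4375 calls over all genes, N+PD30 against N+PD24 gave 2 genes, PD30 against PD24 gave 6107 calls and N+PD24 against Nutlin 8291. The other calls that the block changed among the 10 genes are given with their comparisons. In N+PD30 against N+PD24 the libraries share only a number by the same check, and PTTG1 was the gene added.

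Leaving out each library in turn gave 1 to 3 of the 10 genes in PD30 against PD24, 0 to 5 in N+PD30 against PD30, 0 to 2 in N+PD30 against N+PD24 and 1 to 2 in the interaction. Calls over all genes then ranged from 2178 to 4117, from 583 to 3384 and from 2786 to 4653 in the first 3 and from 3269 to 4664 in N+PD24 against PD24. Values that turned sign lay near 0 and were not called. For the interaction these ranges were -0.060 to 0.022 (SMC1A), -0.065 to 0.15 (SMC3), -0.066 to 0.12 (RAD21), -0.086 to 0.098 (STAG2), -0.48 to 0.073 (ESCO2) and -0.088 to 0.49 (ESPL1), with SMC3 at -0.0054 and RAD21 at -0.019 in DESeq2 and -0.014 and -0.028 with RLE size factors. They were -0.14 to 0.020 for STAG1 and -0.10 to 0.021 for PTTG1 in Nutlin against DMSO, -0.017 to 0.19 for SMC3 in N+PD30 against N+PD24, and -0.051 to 0.14 for SGOL1 in N+PD30 against PD30, where scaling by total counts gave -0.069. The cause of these shifts was not tested. Depth limits ESCO2, ESPL1 and SGOL1 in the groups with PD0332991, where a library held as few as 2, 3 and 18 counts.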
